A study of Mus musculus with 2 samples.

Results

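Steady state RNA of 10 myeloid granule and lysozyme genes was examined by RNA-seq at successive stages of early B cell development, the pre-pro-B cell and the pro-B cell. The genes are *Mpo*, *Elane*, *Prtn3*, *Ctsg*, *Lyz1*, *Lyz2*, *Ms4a3*, *Camp*, *Ltf* and *Ngp*, and they were listed by name as genes of granulocyte and monocyte differentiation, with earlier results of these data known. All 10 were found among the 20250 protein-coding genes of the deposited transcript table, each with 1 RefSeq mRNA. The pre-pro-B library came from *Ebf1* -/- cells derived from embryonic liver of female mice and grown with Il-7 at 5 ng/mL, Scf at 10 ng/mL and Flt3l at 10 ng/mL. The pro-B library came from *Rag2* -/- cells derived from bone marrow of adult male mice and grown with Il-7 at 5 ng/mL alone. Both kinds of cells were of the C57BL/6 strain and were kept on OP-9 cells, a mouse bone marrow stromal line, from which they were washed off before RNA extraction. Both cell types are thus mutant cells arrested in development, and the library type cannot be told apart from genotype, sex, age, tissue or cytokines. With 1 library of each kind, no difference has a replicate check, and no test or p-value is given.

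Granulocytes and monocytes kill microbes with proteins that they store in cytoplasmic granules. Primary (azurophil) granules are filled at the promyelocyte stage with myeloperoxidase and with the serine proteases neutrophil elastase, proteinase 3 and cathepsin G. Secondary (specific) granules are filled at a later stage with lactoferrin, cathelicidin and neutrophilic granule protein. *Mpo*, *Elane*, *Prtn3* and *Ctsg* RNA is a textbook mark of granulocyte and monocyte progenitors, while *Camp*, *Ltf* and *Ngp* RNA marks the later myelocyte. Pre-pro-B cells precede commitment to the B lineage and keep some potential for other blood lineages, whereas pro-B cells are committed to it.

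RNA of these genes was dominated by myeloperoxidase in pre-pro-B cells and was low or listed at 0 in pro-B cells. An FPKM above 0 (a level in fragments scaled by transcript length and by the reads of the library) was given to 3 of the 10 genes in pre-pro-B cells, namely *Mpo*, *Lyz2* and *Prtn3*, and to 1 of the 10, *Mpo*, in pro-B cells. Among all 20250 genes, 66.9% were above 0 in the pre-pro-B library and 63.9% in the pro-B library. The other 7 genes were listed at 0 in both libraries, as were 28.9% of all genes. The summed FPKM of the 10 genes was 41.6 in the pre-pro-B library and 0.122 in the pro-B library, and *Mpo* made up 85.9% and *Lyz2* 13.0% of the pre-pro-B sum.

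Upstream DNA of the genes is shown first, because the members with RNA and the members at 0 include close neighbours and close copies. The 250 bases before the start site of each gene were taken from RefSeq promoter windows (GRCm38.p6) and placed on mm9 by exact match. Only the gene's own chromosome and strand were searched, and all 10 matched 1 place there. Some windows hold annotated exon bases, as GENCODE begins *Mpo* at 87607083 and *Lyz2* at 116719377, upstream of the RefSeq starts. The stretches printed here lie outside every exon that GENCODE annotates for the gene (that of *Prtn3* falls in an intron of a longer annotated transcript), with position -1 the last base before the RefSeq start site, and all read 5′ to 3′. The capitals mark GAGGAAG, the core letters of the binding motif of PU.1 (encoded by *Spi1*), a transcription factor of myeloid and early lymphoid cells.
*Mpo*, chr11:87607036-87607082, plus strand, positions -250 to -204: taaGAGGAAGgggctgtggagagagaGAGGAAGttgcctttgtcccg
*Elane*, chr10:79348957-79349056, plus strand, positions -100 to -1: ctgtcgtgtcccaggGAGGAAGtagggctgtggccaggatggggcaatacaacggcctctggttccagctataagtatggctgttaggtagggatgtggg
*Prtn3*, chr10:79342312-79342358, plus strand, positions -100 to -54: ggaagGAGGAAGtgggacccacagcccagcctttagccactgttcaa
*Ctsg*, chr14:56721562-56721661, minus strand, positions -250 to -151: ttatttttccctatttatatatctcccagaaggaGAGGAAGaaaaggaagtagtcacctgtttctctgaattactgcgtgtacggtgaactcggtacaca
These letters were in the 250 bases of *Mpo* at positions -247 and -224, of *Elane* at -85, of *Prtn3* at -95 and of *Ctsg* at -216, the genes for the primary granule enzymes. The other 6 genes did not hold them on either strand. Among all 32851 promoter windows of the same length, 10.6% held GAGGAAG on either strand. *Mpo* and *Prtn3*, which had RNA in pre-pro-B cells, and *Elane* and *Ctsg*, which were listed at 0, all held the motif, so its presence did not separate the genes by level. A match is a description of the letters and not a measured binding site.

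Motifs of other myeloid factors were searched on both strands in the same way. The palindromic C/EBP motif TTGCGCAA was in none of the 10 windows and in 0.164% of all promoters. Its looser form TTGCNNAA, which also matches the palindrome, was in the windows of *Ltf*, *Lyz1* and *Ngp* and in 9.56% of all promoters. The GATA motif AGATAA was in that of *Ltf* alone and in 9.99% of all promoters. The Runx motif TGTGGTT was in that of *Lyz2* alone and in 4.4% of all promoters. The Myb motif AACNGTT was in none of the 10 and in 3.8% of all promoters. Its shorter form CAACNG, which can overlap it, was in 6 of the 10 and in 29.3% of all promoters.

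*Mpo* encodes myeloperoxidase, the haem enzyme of primary granules that makes hypochlorous acid. The gene (NM_010824, chromosome 11 of mm9, 87607286 to 87617914, plus strand) is annotated with up to 14 exons, and the quantified mRNA is 2546 nt long. *Mpo* stood at 35.7 FPKM in the pre-pro-B library, with a 95% confidence interval from Cuffdiff of 2.70 to 76.1, and at 0.122 FPKM in the pro-B library, with an interval of 0 to 0.450. The intervals did not overlap, and the ratio of the levels was 292. *Mpo* ranked 2195 among the 20250 genes in pre-pro-B cells, above 89.2% of them, and 11128 in pro-B cells, above 45.0%. At the read number that the labels give, about 90 M per library, these FPKM correspond to about 8186 fragments in pre-pro-B cells and about 28 in pro-B cells. On the log2(FPKM + 1) scale, which understates the change of genes with low levels, *Mpo* was 5.03 higher in pre-pro-B cells and took rank 88 of all genes by this difference. Cuffdiff's interval describes the model of a single library and not the variation between cultures. In RNA from a whole culture, fewer cells with a transcript and less of the transcript per cell cannot be told apart.

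*Prtn3* encodes proteinase 3, a serine protease of primary granules. The gene (NM_011178, chromosome 10, 79342412 to 79345917, plus strand, 970 nt of mRNA) stood at 0.476 FPKM in the pre-pro-B library (interval 0 to 1.59) and was listed at 0 in pro-B cells. This level, of about 42 fragments, lay above 47.5% of all genes in pre-pro-B cells, and that of *Mpo* was 75.0 times as high. The difference was 0.56 on the log2(FPKM + 1) scale, and the interval in pre-pro-B cells included 0. *Elane*, which encodes neutrophil elastase (NM_015779, chromosome 10, 79349057 to 79350961, plus strand, 920 nt), was listed at 0 in both libraries. *Ctsg*, which encodes cathepsin G (NM_007800, chromosome 14, 56718718 to 56721411, minus strand, 1002 nt), was also listed at 0 in both. The quantification status was OK in both libraries for these and all other members. A listed 0 is not read as absence, because *Rps27*, a ribosomal protein gene, was also listed at 0 in the pre-pro-B library (FPKM 1.10 in pro-B cells), 1 of 72 ribosomal protein genes at 0 there. The serine proteases, which lie in primary granules together with myeloperoxidase, thus differed widely from *Mpo* in listed level within the pre-pro-B library.

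**Figure D1:**
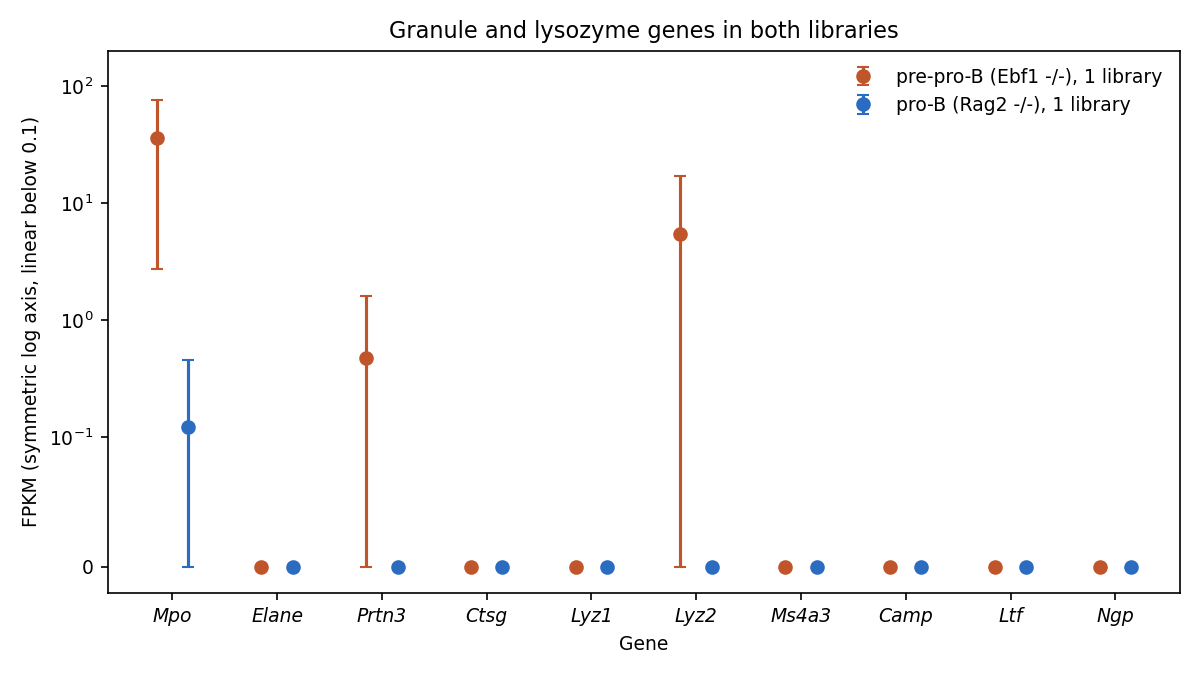
FPKM (vertical axis, logarithmic above 0.1 and linear below) of the 10 genes (horizontal axis) in the pre-pro-B library (orange) and the pro-B library (blue), 1 library each, with Cuffdiff's 95% intervals as bars. *Mpo*, *Lyz2* and *Prtn3* stand above 0 in pre-pro-B cells, *Mpo* alone does in pro-B cells, and 7 genes are at 0 in both.

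*Lyz2* encodes the lysozyme of macrophages and granulocytes, an enzyme that cleaves bacterial cell walls, and *Lyz1* encodes its close copy, best known from the Paneth cells of the intestine. *Lyz2* (NM_017372, chromosome 10, 116714597 to 116719328, minus strand, 1057 nt) stood at 5.39 FPKM in the pre-pro-B library (interval 0 to 17.0) and was listed at 0 in pro-B cells. That level, of about 513 fragments, lay above 61.7% of all genes and was lower than that of *Mpo* by a factor of 6.62. The difference was 2.68 on the log2(FPKM + 1) scale, and the interval reached 0. *Lyz1* (NM_013590, chromosome 10, 116724851 to 116729924, minus strand, 1265 nt) was listed at 0 in both libraries. In the order of levels in pre-pro-B cells, *Mpo* stood above *Lyz2* and *Lyz2* above *Prtn3*, but the interval of *Lyz2* overlapped those of both neighbours in this order.

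The lysozyme genes lie 5523 nt apart on the same strand, and how far their reads can be assigned depends on how alike they are. The longest GENCODE transcripts of *Lyz1* and *Lyz2* were identical at 1212 of 1314 aligned positions (92.2%). Of the stretches of 97 bases, the read length, 30 were shared, which is 2.57% of those of *Lyz1* and 2.47% of those of *Lyz2*. Those shared reads were divided by Cuffdiff's multi-read correction, so the split between *Lyz1* and *Lyz2* is uncertain at least to that extent. The authors trimmed reads by quality before alignment, and shorter reads can fit both genes more often. The sum of both genes was 5.39 in the pre-pro-B library and 0 in the pro-B library. The other 8 members shared no stretch of 97 bases with another protein-coding gene of GENCODE. The likeness went on upstream of the start sites, where 205 of 260 aligned positions (78.8%) of the 250-base windows were identical and the 50 bases next to the start were the same in both. For *Lyz2*, GENCODE places all but the outermost base of this run in an exon. The bases just before that run and its outermost base are shown here, and the capitals mark the 8 of 51 that differ.
*Lyz1*, chr10:116729974-116730024, minus strand, positions -100 to -50: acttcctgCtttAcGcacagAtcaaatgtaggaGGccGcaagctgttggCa
*Lyz2*, chr10:116719378-116719428, minus strand, positions -100 to -50: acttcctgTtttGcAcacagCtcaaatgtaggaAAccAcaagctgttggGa
The TGTGGTT match of *Lyz2*, on the opposite strand at position -67, falls in this stretch at bases where *Lyz1* differs. The windows of *Prtn3* and *Elane* were much less alike, with 48.5% identity, and their transcripts had 59.6%.

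The secondary granule genes and *Ms4a3* were listed at 0 throughout. *Ltf*, which encodes the iron-binding protein lactoferrin (NM_008522, chromosome 9, 110921796 to 110945270, plus strand, 2742 nt), was listed at 0 in both libraries. *Camp*, which encodes the antimicrobial peptide cathelicidin (NM_009921, chromosome 9, 109749891 to 109751970, minus strand, 599 nt), and *Ngp*, which encodes neutrophilic granule protein (NM_008694, chromosome 9, 110322312 to 110325516, plus strand, 1161 nt), were also listed at 0 in both. *Ms4a3*, a four-span membrane protein gene whose RNA marks granulocyte and monocyte progenitors (NM_133246, chromosome 19, 11703987 to 11715324, minus strand, 1012 nt), was at 0 in both as well. Of these 4 genes, the *Ltf* mRNA is the longest, and at equal FPKM it gives the most reads.

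At a difference of at least 1 on the log2(FPKM + 1) scale, 2 of the 10 genes, *Mpo* and *Lyz2*, were higher in pre-pro-B cells, and 0 were lower. Over all 20250 genes, 9.94% were higher in pre-pro-B cells by this measure and 6.34% were lower. The intervals stood apart, with the higher level in pre-pro-B cells, for 1 of the 10 (*Mpo*) and for 1.58% of all genes. The median difference was 0 over the 10 genes and 0 over all genes, and among genes at an FPKM of at least 1 in both libraries it was 0.08. The members were thus split into a pair with large differences, *Prtn3* with a difference below 1, and 7 with no listed RNA. At the share over all genes a group of this size would hold about 1 gene past the difference of 1, so the count of 2 is not a result about the group.

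**Figure D2:**
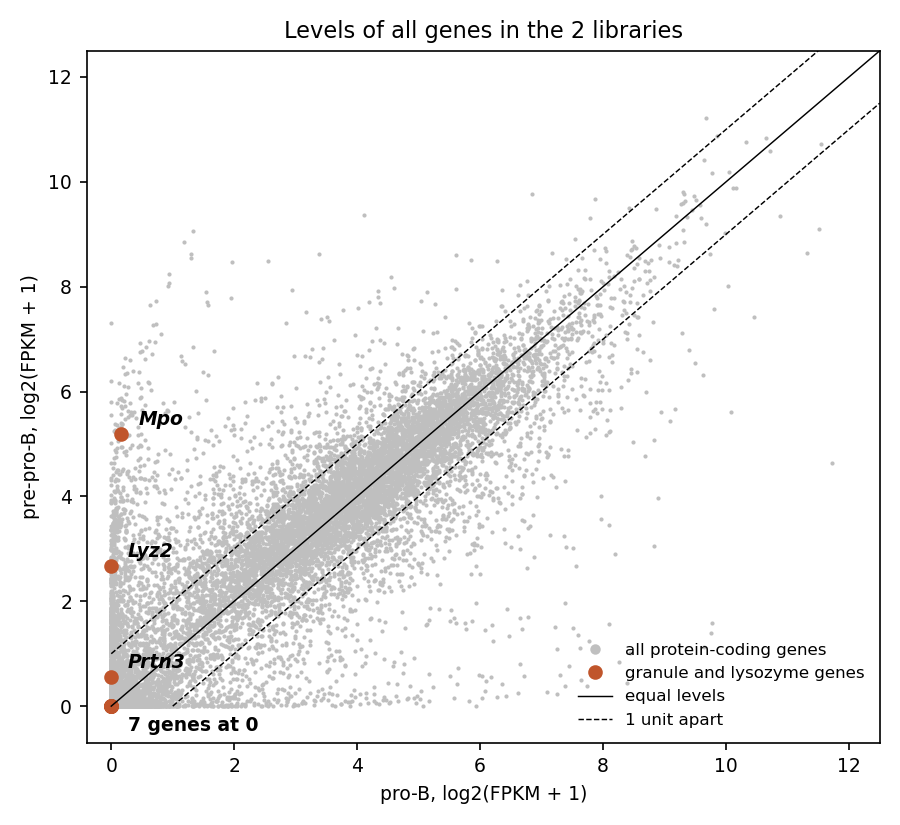
Level in pro-B cells (horizontal axis) against level in pre-pro-B cells (vertical axis), both log2(FPKM + 1), for all 20250 genes (grey) and the 10 granule and lysozyme genes (orange), with lines for equal levels and for a difference of 1. *Mpo*, at a difference of 5.03, and *Lyz2*, at 2.68, lie above the upper dashed line, *Prtn3*, at 0.56, lies below it, and 7 genes lie at the origin.

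The chromosomal neighbours were examined for levels like those of the members. *Lpo*, the gene of lactoperoxidase, lies 2016 nt downstream of *Mpo* and was listed at 0 in both libraries, as was *Epx*, the gene of eosinophil peroxidase, 59586 nt away. On the other side, *Tspoap1*, 7856 nt away, stood at 1.01 FPKM in the pre-pro-B library and 0.943 in the pro-B library. *Mks1*, a ciliary gene between *Lpo* and *Epx*, was higher in pre-pro-B cells like *Mpo*, at 6.59 against 2.08, a log2(FPKM + 1) difference of 1.30. *Mpo* was therefore far from its peroxidase neighbours in level, and *Tspoap1* differed little between the libraries. *Elane* starts 3140 nt downstream of *Prtn3*, and *Cfd*, the gene of complement factor D, lies 2637 nt beyond *Elane* and was listed at 0 in both. *Ptbp1* and *Plppr3* share a listed stretch that ends 5033 nt upstream of *Prtn3*, so which of them lies nearer cannot be told. *Ptbp1* stood at 65.4 FPKM in the pre-pro-B library and 83.8 in the pro-B library. *Plppr3*, in the same stretch as *Ptbp1*, was higher in pre-pro-B cells, at 4.93 against 1.11, a difference of 1.49. The 3 serine protease genes of this cluster were thus at or near 0 in the neighbourhood of *Ptbp1*, a widely expressed splicing regulator. Around the lysozyme genes, *9530003J23Rik*, the next gene beside *Lyz2*, was listed at 0 in both, while *Cpsf6*, a cleavage and polyadenylation factor gene beyond *Lyz1*, stood at 92.2 FPKM in the pre-pro-B library and 151 in the pro-B library. *Cpm*, which encodes carboxypeptidase M and is the next gene after *Cpsf6*, was at 0.120 in the pre-pro-B library and 64.3 in the pro-B library, a difference of -5.87, the opposite direction to *Lyz2*.

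**Figure D3:**
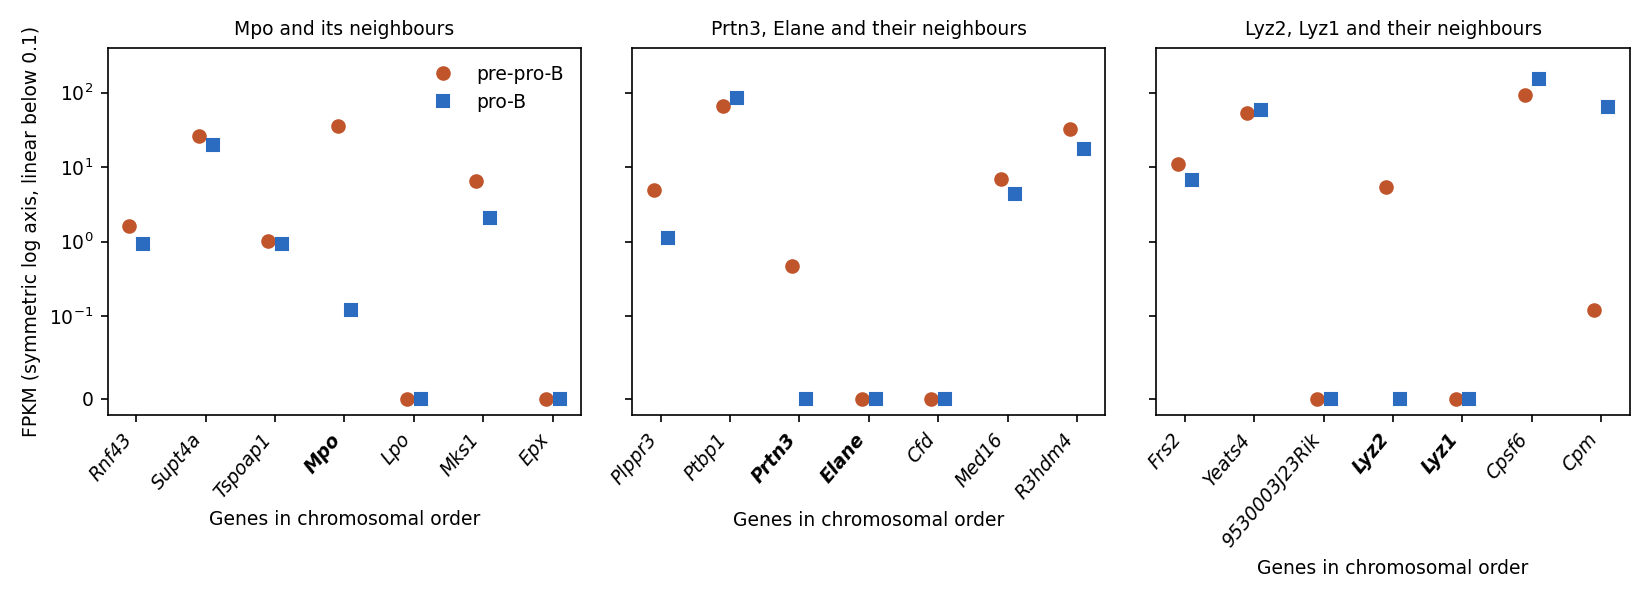
FPKM (vertical axis, logarithmic above 0.1 and linear below) of *Mpo*, of *Prtn3* and *Elane*, and of *Lyz2* and *Lyz1* (bold names) with their protein-coding neighbours in chromosomal order, in pre-pro-B cells (orange circles) and pro-B cells (blue squares). *Mpo*, at 35.7 against 0.122, stands between genes whose levels in the libraries are closer or at 0.

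*Ctsg* lies among the mast cell protease and granzyme genes. Of its 6 nearest neighbours, *Mcpt2*, *Mcpt4*, *Mcpt8*, *Gzmd* and *Gzmg* were listed at 0 in both libraries, and *Gzme* was at 0 in the pre-pro-B library and 0.125 in the pro-B library. All 6 neighbours of *Ms4a3*, among them *Ms4a2*, *Ms4a4d* and *Ms4a6d*, were listed at 0 in both. *Camp* and *Ngp*, by contrast, lie close to genes with RNA, and *Ltf* has such genes on one side only. *Nme6*, a nucleoside diphosphate kinase family gene 4416 nt from *Camp*, was at 4.40 in the pre-pro-B library and 1.89 in the pro-B library, and *Klhl18*, 2914 nt from *Ngp*, was at 7.87 and 3.79. *Ccrl2*, an atypical chemokine receptor gene 12069 nt from *Ltf*, was at 1.27 and 1.15. On the other side of *Ltf*, *Rtp3*, *Lrrc2* and *Tdgf1* were listed at 0 in both libraries.

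Other genes of primary granules and promyelocytes were then examined, and where values are paired from here on, the pre-pro-B FPKM comes before the pro-B FPKM. Of 8 genes, 3 were higher in pre-pro-B cells by at least 1 on the log2(FPKM + 1) scale, 0 were lower, and the median difference was 0.65. *Serpinb1a*, an inhibitor of elastase-like proteases, stood at 56.6 FPKM in the pre-pro-B library and 1.91 in the pro-B library, a difference of 4.30. *Cst7*, which encodes cystatin F, an inhibitor of cysteine cathepsins and not of serine proteases such as cathepsin G, was at 70.0 and 5.13, a difference of 3.53. *Prss57*, a serine protease gene of the same granule family as *Elane*, was at 6.72 and 0.250, a difference of 2.63. *Serpinb1a* and *Cst7* were therefore listed at higher levels than any of the 3 serine proteases among the members, and *Prss57* had RNA where *Elane* and *Ctsg* had none listed. *Srgn*, which encodes the proteoglycan that holds granule proteins, was abundant in both libraries (426 and 262), as was *Ctsc*, the enzyme that activates granule serine proteases (38.2 and 34.5).

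Of 14 secondary and tertiary granule genes outside the members, 13 were found, 7 were higher in pre-pro-B cells, 0 were lower, and the median difference was 1.00. The largest was that of *Cybb*, the catalytic subunit of the phagocyte NADPH oxidase, with 7.25 FPKM in the pre-pro-B library and 0.163 in the pro-B library. Its partner subunit *Cyba* was at 52.2 and 24.5, and *Itgam*, the integrin subunit CD11b, was at 19.7 and 6.40. These highest genes of the list encode membrane proteins. The rest of the 7 were *Pglyrp1*, *Hp*, *S100a8* and *Adam8*, with differences of 1.33, 1.31, 1.17 and 1.00, in that order. *Mmp8*, *Mmp9*, *Cd177*, *Chil3* and *S100a9*, which encode proteases, a membrane protein (*Cd177*) and other granule or cytosolic proteins of mature granulocytes, were listed at 0 in both. *Lcn2* was at 0 in the pre-pro-B library and 0.626 in the pro-B library. The 6 genes of the lysozyme-like list outside the members were all listed at 0 in both libraries.

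**Figure D4:**
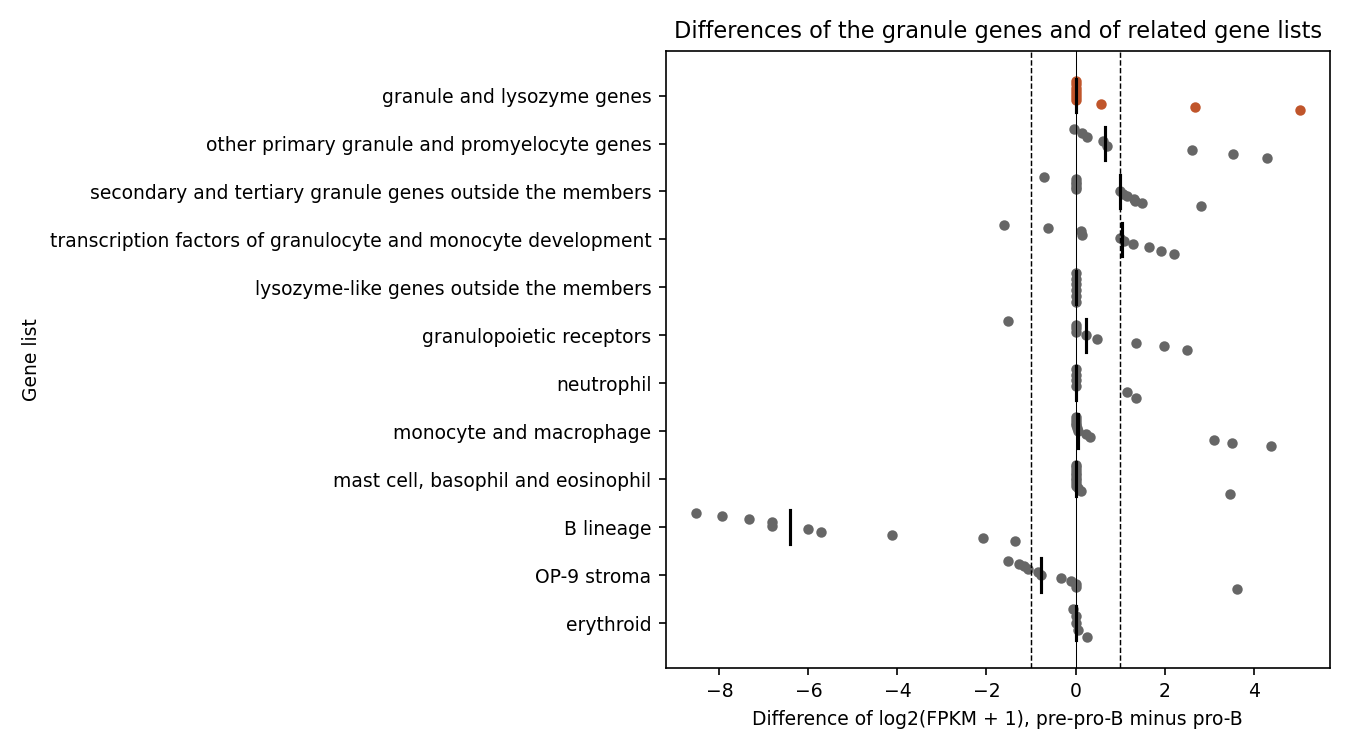
Difference of log2(FPKM + 1), pre-pro-B minus pro-B (horizontal axis), for the granule and lysozyme genes (orange points) and the genes of related lists (grey points), 1 row a list, with the median as a black bar and dashed lines at -1 and 1. The members hold 2 points beyond 1 and a median of 0, and the median of the B lineage genes is -6.41.

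Transcription factors of granulocyte and monocyte development were measured in both libraries, and 5 of 10 were higher in pre-pro-B cells, 1 was lower, and the median difference was 1.04. *Spi1* (PU.1) stood at 19.1 FPKM in the pre-pro-B library and 3.34 in the pro-B library, and *Cebpa*, a driver of granulocyte commitment, was at 2.48 and 0.116. *Runx1* was at 64.4 and 16.3, *Irf8* at 66.9 and 27.0, and *Klf4* at 1.89 and 0.358. *Gfi1*, a repressor that acts in granulocyte and lymphoid cells, went the other way, at 2.86 in the pre-pro-B library and 10.7 in the pro-B library. *Cebpe*, the factor of secondary granule genes, was at 0.117 and 0.0248, and *Myb*, which acts on early granule genes and on lymphoid progenitors, was the most abundant, at 280 and 431. *Spi1*, *Cebpa* and *Runx1* were thus higher in the library with the higher *Mpo* level, while *Gfi1* and *Myb* were listed lower there. The intervals overlapped for each of these factors, and their part in the level of *Mpo* was not tested.

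Of 9 receptors of granulopoiesis, 3 were higher in pre-pro-B cells, 1 was lower, and the median difference was 0.23. *Csf2rb*, the shared beta chain of the GM-CSF, IL-3 and IL-5 receptors, stood at 4.87 FPKM in the pre-pro-B library and 0.0374 in the pro-B library. *Il6ra* was at 3.07 and 0.0218, and *Cxcr2*, a chemokine receptor of neutrophils, was at 1.89 and 0.134. *Cxcr4*, the receptor that retains blood cells in bone marrow, was lower in pre-pro-B cells, at 134 against 382. *Csf2ra*, the alpha chain of the GM-CSF receptor, was at 9.80 and 6.72. *Csf3r*, the G-CSF receptor, was at 0.00624 in the pre-pro-B library and listed at 0 in the pro-B library, and *Csf1r*, the M-CSF receptor, was at 0.170 and 0. In the lists of granule genes, factors and receptors outside the members, the intervals of the libraries overlapped for every gene that was higher in pre-pro-B cells.

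Markers of cell types that a culture could hold were compared beside the members. Of 7 neutrophil markers, 6 were found, *Cxcr2* and *S100a8* were higher in pre-pro-B cells, their summed FPKM was 3.14 in the pre-pro-B library and 0.134 in the pro-B library, and *Mmp8*, *Cd177* and *S100a9* were listed at 0 in both. Of 12 monocyte and macrophage markers, 11 were found, with sums of 168 and 14.8, and *C1qa*, *C1qb*, *C1qc* and *Fcgr1* were listed at 0 in both. In that list, 3 genes were higher in pre-pro-B cells, namely *Ccr2* (134 and 14.6), *Ly6c2* (21.8 and 0.0803) and *Adgre1* (11.7 and 0.111), and the intervals of *Ccr2* and *Ly6c2* did not overlap. Monocyte markers of this kind, which early myeloid progenitors can also express, thus moved with *Mpo* and *Lyz2*, and their part in the result was not tested. Of 12 markers of mast cells, basophils and eosinophils, 1 was higher in pre-pro-B cells, *Cpa3*, a mast cell carboxypeptidase that early progenitors also express (10.5 and 0.0296), and 9 were listed at 0 in both. *Prg2* (0.216 and 0.116) and *Hdc* (0.127 and 0.0922) were the others above 0. The summed level of that list was 10.8 in the pre-pro-B library and 0.238 in the pro-B library. Erythroid markers, 5 of 6 found, summed to 0.449 and 0.232, with 0 genes past the difference of 1, and *Epor* (0.253 and 0.0506), *Klf1* (0.196 and 0.145) and *Alas2* (0 and 0.0356) were those above 0. Of 11 markers of the OP-9 stroma, 1 was higher in pre-pro-B cells, *Pdgfrb* (15.9 and 0.377), and 4 were lower, namely *Fn1* (1.16 and 5.16), *Cxcl12* (0.618 and 2.92), *Col1a2* (0.707 and 2.82) and *Acta2* (0.608 and 2.39). The median difference of that list was -0.78, and *Dcn* and *Postn* were at 0 in both. Its sums (that without *Pdgfrb* was added after its values were seen) were 20.6 and 18.2 with *Pdgfrb* and 4.67 and 17.8 without it, so the stroma markers other than *Pdgfrb* were on balance higher in the pro-B library.

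All 10 B lineage markers were lower in pre-pro-B cells by at least 1, with a median difference of -6.41 and sums of 95.8 and 2410. The surrogate light chain genes *Igll1* (1.17 and 798) and *Vpreb1* (0.359 and 335) were among those that differed most. *Cd79a* (0.200 and 135) and *Cd79b* (1.81 and 181), which encode the signalling chains of the B cell receptor, and *Pax5* (1.13 and 239), the factor of B cell commitment, also had differences of that direction. The signalling adaptor *Blnk* (1.83 and 147) and the inhibitory receptor *Cd22* (0.545 and 25.8) were lower in pre-pro-B cells as well. *Ebf1*, the gene deleted in the pre-pro-B cells, had an FPKM of 64.0 there and 273 in pro-B cells, and *Rag2*, deleted in the pro-B cells, was at 34.5 in the pre-pro-B library and 22.9 in the pro-B library. FPKM cover the whole transcript, so neither value checks the deletion.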

How the data were processed

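RNA-seq was made from 1 pre-pro-B and 1 pro-B library, from total RNA depleted of ribosomal RNA, as strand-specific single-end reads of 97 bases (about 90 M per library, per the labels). The authors aligned the reads to mm9 with TopHat (version 1.5 in the submitters' processing notes) and estimated FPKM of RefSeq transcripts with Cuffdiff 2.1.1, with multi-read and bias correction and no scaling between libraries. The deposited FPKM carry a 95% interval and a status but no counts, so fragments were approximated from FPKM, transcript length and the labelled read number, which is above the number aligned. A further deposited table holds the authors' fold changes, p-values and q-values, which were not used, and 2 per-sample columns, also not used because their names give no sample.

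Of 30485 transcripts, 26968 are mRNAs with 26580 accessions, of which 26173 received a symbol from a RefSeq gene table (GRCm38.p6, names only). FPKM and interval limits were summed per symbol over 20250 genes. Differences are of log2(FPKM + 1), and a difference of at least 1 was counted. Alternatives were other pseudocounts, a filter on low FPKM, TPM, median-ratio scaling, the most abundant transcript, a 4-fold limit and *Lyz1* and *Lyz2* summed. Genes named are the 10 members, in each list the 3 with the highest FPKM and those past the difference of 1 (the first 8 by size), *Ebf1*, *Rag2*, chromosomal neighbours (3 on each side) and the 3 genes nearest in level to each of the 3 highest members. A gene that this rule names is not reported here. Other genes of the lists and *Rps27* were named after their values were seen. The members and lists were chosen with earlier results of these data known. Gene extents and the distances between neighbours are those of the deposited RefSeq loci. Exons and the transcripts compared by sequence are those of GENCODE, all on mm9. Scripts (Python 3.11.15, numpy 2.4.6, pandas 2.3.3, matplotlib 3.10.9, Biopython 1.88) were tested on simulated data.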

Additional observations from a re-analysis of the deposited data

How the results depend on the processing

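With 1 library per cell type and FPKM without counts, these values rest on single estimates, and an FPKM of 0 carries no limit. Of 47 recomputed values, 32 stayed within the range taken as unchanged, 15 moved and 0 reversed. Some of the 32 could not have changed, so the tally is not a measure of robustness. Each member has 1 RefSeq mRNA, so taking the most abundant transcript left the member values as they were. The filter at FPKM 1 cannot alter the difference of a gene that passes it, or remove a gene past the difference of 1. The count of members higher in pre-pro-B cells was 2 and became 3, with *Prtn3* added, under a pseudocount of 0.1, of 0.01 and in TPM. The median difference over the members was 0 and became 3.85 when genes had to reach FPKM 1 in either library, which left *Mpo* and *Lyz2* as the only members. The difference of *Mpo* ran from 4.98 to 8.08, that of *Lyz2* from 2.64 to 9.08 and that of *Prtn3* from 0.55 to 5.60, highest in each case with the pseudocount of 0.01. The share of all genes higher in pre-pro-B cells, 9.94%, ran from 3.88% at 4-fold to 19.7% with that pseudocount. The log2 shift between the libraries was 0.09 for TPM and -0.09 for median-ratio scaling. TPM also raised the values of both libraries before the same pseudocount was added, so it acts on low levels like a smaller pseudocount. The added *Prtn3* under TPM is therefore not independent of the pseudocount results. Summing *Lyz1* and *Lyz2*, an alternative chosen after seeing the data, could not change the count of 2, because *Lyz1* was listed at 0 in both libraries. The FPKM columns of the further deposited table were not run as an alternative, because their names give no sample. No paired analysis was possible because each cell type has a single library.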

Other observations

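The genes whose pairs of log2(FPKM + 1) values lay nearest to those of *Mpo* over the 2 libraries were *Myo1f* (pre-pro-B 34.7 FPKM, pro-B 0.159 FPKM, distance 0.06), a myosin of leukocytes, *Itgb7* (37.2 and 0.141, distance 0.06), an integrin subunit of lymphocytes and mast cells, and *Hpse* (34.7 and 0.201, distance 0.11), which encodes heparanase. For *Lyz2* they were *Ptpn21* (5.40 and 0.0195), *Rasgrp4* (5.55 and 0.00231), a gene of mast and myeloid cells, and *Ephb2* (5.38 and 0.0275). For *Prtn3* they were *Mamdc2*, *Tbx21* and *Htra1*, at an FPKM of 0.476, 0.480 and 0.480 in the pre-pro-B library, and all were listed at 0 in the other library. A likeness over 2 libraries is a description of these levels, and says nothing of shared control.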
